A study of Saccharomyces cerevisiae with 4 samples.

Results

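The transcripts of 39 yeast genes of glycolysis, ethanol fermentation, gluconeogenesis and the neighbouring acetate and glycerol branches were followed into nuclear mRNPs (messenger ribonucleoprotein particles). The genes were taken by name from the 6692 open reading frames in the count table, by a rule that uses no measured values, although earlier results of these data were known. They comprise 11 major isoenzymes (the member of a family known to carry the reaction on glucose, or in the ALD, GPD and GPP families the member taken as its reference), 20 minor isoenzymes and 8 genes of steps or subunits with no second copy among them. All 39 matched the RefSeq table of assembly R64, and each has 1 exon.

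Particles were isolated from Saccharomyces cerevisiae BY4741 carrying sub2-FLAG-3C-ProtA::kanMX4 and hpr1-TS::hphNT1, that is, affinity tags on the helicase Sub2 and on Hpr1, a subunit of the THO complex. Both proteins join mRNA during transcription in the nucleus, and both served as baits in 2 consecutive purification steps. The 2 eluates were the particles released with biotin after the last step, and the 2 lysates were total RNA taken before the first step. Lysates came from the same tagged strain, grown in the glucose medium YPD to an optical density of about 1, so that the tagged alleles and the medium were shared by both groups. The eluate holds what both baits retained and is not a complete sample of the nucleus.

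Glycolysis converts glucose to pyruvate, and yeast on glucose ferments most of the pyruvate to ethanol. Many steps are encoded by several genes, of which one is transcribed strongly on glucose, while others are repressed by glucose or respond to other conditions. The mRNAs of the major enzymes are known to be among the most abundant in a cell growing on glucose.

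Total counts were 22454265 and 29903666 in the eluates, while the lysates had 14793216 and 11448755. Pearson's r of log2 values across the 6191 genes tested was 0.998 for the eluate pair and 0.996 for the lysate pair, across genes that are not independent replicates. Mitochondrially encoded transcripts made up 0.00717% and 0.00685% of counts in the eluates, while the lysates held 1.31% and 1.33%. LEU2, MET17 and URA3, which BY4741 lacks, were listed at 0 counts in all 4 libraries, and HIS3, which is partly deleted in this strain, was counted 344 and 480 times in the eluates and 1105 and 870 times in the lysates. Of the mating type markers, STE2, the receptor of MATa cells, had 6885 and 8804 counts in the eluates, while the lysates held 6966 and 5979. MFA1 and MFA2, the a-factor genes, were also present, with 135 to 1287 counts per library. STE3, the receptor of MATalpha cells, had 12 and 17 counts in the eluates, while the lysates held 29 and 16. MF(ALPHA)1 had 6 counts or fewer in each library. MF(ALPHA)2 had 319 and 369 counts in the eluates, while the lysates held 28 and 32.

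Most of the carbon metabolism genes were lower in the eluate than in the lysate, and the decrease was deepest in glycolysis. Enrichment was tested with edgeR's quasi-likelihood test on the deposited counts of all genes, and a gene was called at a Benjamini-Hochberg adjusted p under 0.05. All 39 passed the filter on low counts, and 26 of them (66.7%) were lower, 7 (17.9%) were higher and 6 did not pass the test. Over all 6191 genes tested, 44.8% were lower and 44.2% were higher. The median log2 fold change, eluate over lysate, was -1.43 for the 39 genes and -0.01 for all genes tested. Decreases of more than 4-fold were found for 15 of the 39 genes (38.5%), against 18.1% of all genes tested. Genes of high lysate level were mostly lower in general. In the highest of 5 equal classes of lysate level, which held 26 of the 39 genes, their median was -2.07 and that of all genes there was -2.12. Less the trend with lysate level, the median of the 39 genes was 0.53. The extremes were GPM1 at -4.71 and ADH2 at 1.71. In 35 of the 39 genes the eluates and the lysates did not overlap, as was the case for 94.4% of all genes tested. Such changes are relative to all RNA counted in a fraction, and in these bulk samples fewer cells contributing a transcript to the particles and fewer such particles per cell cannot be told apart.

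**Figure D1:**
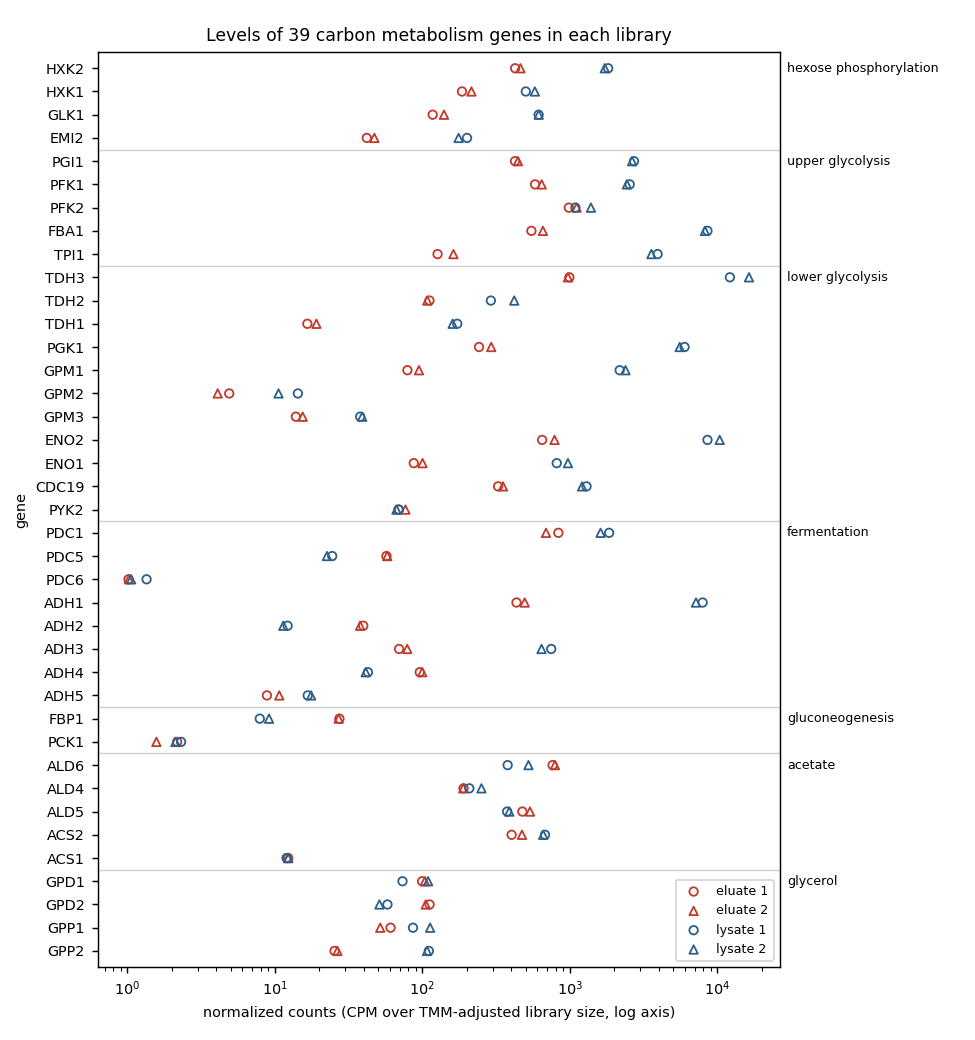
Normalized counts of the 39 genes in each library (CPM over TMM-adjusted library size, log axis), grouped by pathway step, with eluates in red and lysates in blue and circles and triangles for replicates 1 and 2. In glycolysis the blue symbols of most genes lie to the right of the red ones, by 26.2-fold for GPM1, while those of PFK2 and PYK2 overlap.

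The genes of glucose uptake into the pathway were all lower. HXK2 (YGL253W, chromosome VII from 23935 to 25395 in sacCer3), the main hexokinase on glucose, had 425 and 462 CPM (normalized counts over the TMM-adjusted library size) in the eluates and 1817 and 1724 CPM in the lysates. The log2 fold change was -1.997 (standard error 0.12, edgeR adjusted p = 2.65e-10). HXK1 (YFR053C), a hexokinase repressed by glucose, had 185 and 215 CPM in the eluates and 502 and 578 CPM in the lysates (-1.43, standard error 0.11). Both genes showed eluates well below lysates, with less of a gap for HXK1. Glucokinase GLK1 (YCL040W) had 117 and 140 CPM in the eluates and 613 and 614 CPM in the lysates (-2.25). Its paralogue EMI2 (YDR516C), whose role is less well defined, had 41.9 and 47.2 CPM in the eluates and 201 and 176 CPM in the lysates (-2.08). The 4 decreases thus lay between 1.43 and 2.25 on the log2 scale, a narrow range next to that of the later steps. HXK1 and GLK1 share 143 and 106 bases with an open reading frame on the same strand.

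Of the 5 genes from glucose 6-phosphate to the triose phosphates, 4 were lower and 1, PFK2, did not pass. PGI1 (YBR196C, chromosome II from 612236 to 613900), phosphoglucose isomerase, had 424 and 444 CPM in the eluates and 2720 and 2640 CPM in the lysates (log2 fold change -2.63, standard error 0.12, edgeR adjusted p = 2.09e-11). FBA1 (YKL060C, chromosome XI from 326408 to 327487), the aldolase, had 548 and 656 CPM in the eluates and 8565 and 8232 CPM in the lysates, 13.9-fold lower in the eluates (-3.80, standard error 0.17, adjusted p = 9.34e-12). TPI1 (YDR050C, chromosome IV from 555726 to 556472), triose phosphate isomerase, had 127 and 162 CPM in the eluates and 3933 and 3570 CPM in the lysates. At 26.0-fold lower in the eluates (-4.70, standard error 0.16, adjusted p = 7.07e-13), TPI1 was close to the lower end of the whole group.

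Phosphofructokinase, the committed step of glycolysis, is an octamer of alpha subunits from PFK1 and beta subunits from PFK2, and the transcripts of these subunits behaved differently. PFK1 (YGR240C, chromosome VII from 970771 to 973734) had 581 and 643 CPM in the eluates and 2544 and 2434 CPM in the lysates (log2 fold change -2.02, standard error 0.12, edgeR adjusted p = 4.68e-10). PFK2 (YMR205C, chromosome XIII from 671887 to 674766) had 983 and 1110 CPM in the eluates and 1090 and 1388 CPM in the lysates. The eluates and lysates of PFK2 overlapped, and its log2 fold change of -0.24 (standard error 0.13) did not pass the test (adjusted p = 0.0966). Per base of coding length, PFK2 counts were 174% and 178% of those of PFK1 in the eluates, while the lysates had 44.1% and 58.7%. The ratio was therefore 3.46-fold higher in the eluates, and the 2 genes' log2 fold changes differed by 1.78 (combined standard error 0.182, as if independent). An exact permutation test of the ratio gave p = 0.333, the smallest that 2 against 2 libraries allow, and the pair was chosen after its values were seen. PFK2 was called lower without lysate 1 (-0.41, adjusted p = 0.0100). The coding lengths are alike, 2964 bases for PFK1 and 2880 bases for PFK2, and neither gene overlaps another. Their mean lysate levels differed, at 840 CPM per kilobase for PFK1 and 430 for PFK2. The cause of the contrast was not tested.

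From glyceraldehyde 3-phosphate to pyruvate, 10 of 11 genes were lower, with a median log2 fold change of -3.22. TDH3 (YGR192C, chromosome VII from 882812 to 883810), the main glyceraldehyde 3-phosphate dehydrogenase, had 991 and 970 CPM in the eluates and 12155 and 16375 CPM in the lysates, 14.5-fold lower in the eluates (-3.86, standard error 0.20, edgeR adjusted p = 5.44e-11). Counted per kilobase of coding length, it ranked 11 in the eluates and 3 in the lysates among all 6692 open reading frames. TDH3 thus stayed among the leading transcripts of the eluate despite the decrease. TDH2 (YJR009C) had 112 and 108 CPM in the eluates and 291 and 419 CPM in the lysates (-1.69). TDH1 (YJL052W), an isoenzyme of stationary cells, had 16.6 and 19.1 CPM in the eluates and 172 and 160 CPM in the lysates (-3.22). Within this family the decrease was smaller for TDH2 than for TDH3 or TDH1.

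PGK1 (YCR012W, chromosome III from 137746 to 138996), phosphoglycerate kinase, had 242 and 293 CPM in the eluates and 5990 and 5550 CPM in the lysates, 21.6-fold lower in the eluates (log2 fold change -4.43, standard error 0.16, edgeR adjusted p = 1.37e-12). GPM1 (YKL152C, chromosome XI from 163642 to 164385), phosphoglycerate mutase, had 79.1 and 94.7 CPM in the eluates and 2175 and 2381 CPM in the lysates. Its 26.2-fold decrease (-4.71, standard error 0.14, adjusted p = 1.92e-13) was the largest of the 39 genes. Both genes overlap a short open reading frame on the opposite strand, PGK1 over 595 bases and GPM1 over 468 bases, and the overlapping frames hold 59 to 94 counts per eluate and 1250 to 2128 counts per lysate. GPM2 (YDL021W) and GPM3 (YOL056W), GPM1 homologues without a known part in glycolysis, were expressed at low levels. GPM2 had 4.90 and 4.09 CPM in the eluates and 14.3 and 10.6 CPM in the lysates (-1.49), and GPM3 had 13.9 and 15.4 CPM in the eluates and 37.8 and 39.04 CPM in the lysates (-1.39).

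Enolase and pyruvate kinase complete the pathway. ENO2 (YHR174W, chromosome VIII from 451327 to 452640), the enolase induced by glucose, had 648 and 787 CPM in the eluates and 8565 and 10365 CPM in the lysates (log2 fold change -3.72, standard error 0.18, edgeR adjusted p = 2.88e-11). ENO1 (YGR254W), its near copy, had 87.3 and 100.2 CPM in the eluates and 814 and 970 CPM in the lysates (-3.25, standard error 0.13). Both enolase genes were thus more than 4-fold lower. CDC19 (YAL038W, chromosome I from 71786 to 73288), the main pyruvate kinase, had 326 and 352 CPM in the eluates and 1296 and 1209 CPM in the lysates (-1.89, standard error 0.11, adjusted p = 2.96e-10), and it overlaps an open reading frame on the opposite strand over 963 bases. PYK2 (YOR347C), the pyruvate kinase repressed by glucose, had 68.7 and 76.7 CPM in the eluates and 69.3 and 66.7 CPM in the lysates. PYK2 was the gene of these steps that did not pass (0.10, standard error 0.09, adjusted p = 0.337), and its libraries overlapped. Over the 10 major or single genes from PGI1 to pyruvate, 9 were lower and the median log2 fold change was -3.76.

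**Figure D2:**
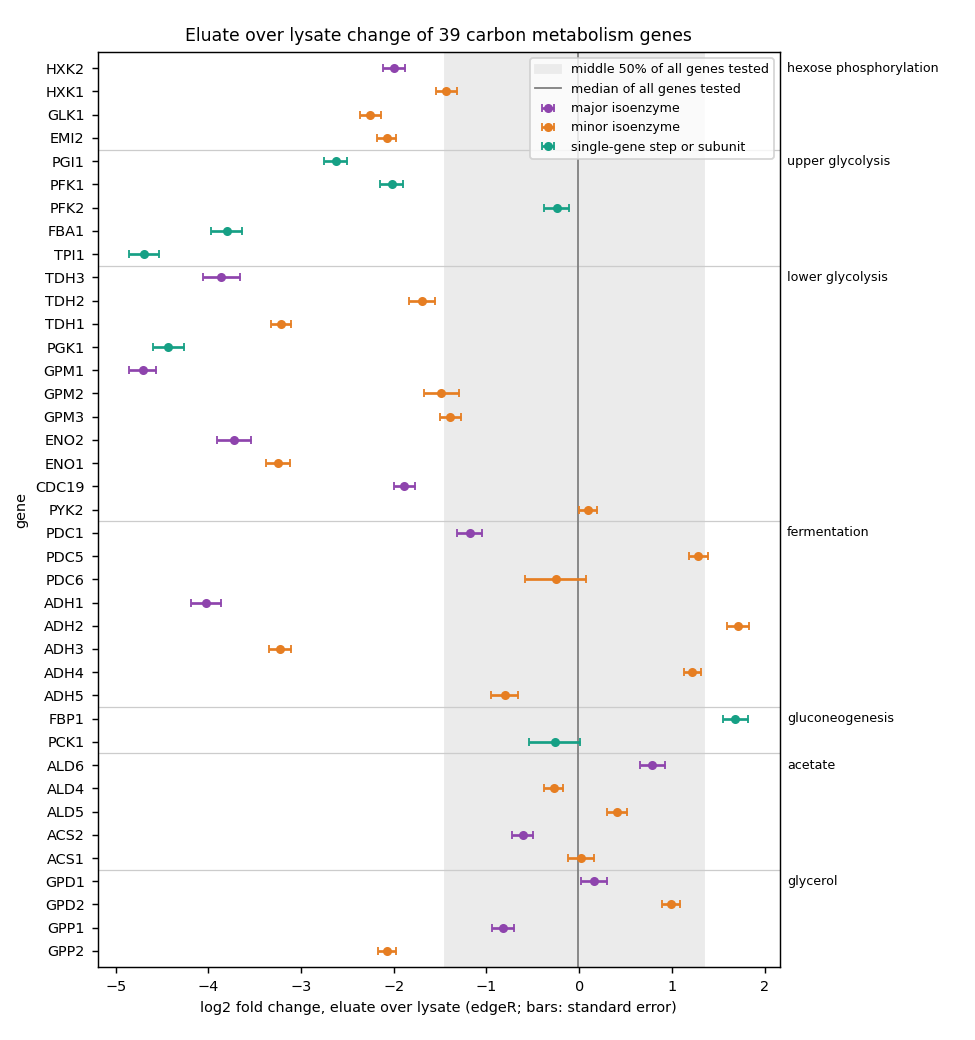
Log2 fold change of each of the 39 genes, eluate over lysate, with its standard error from edgeR, coloured by isoenzyme class and ordered by pathway step. The grey band holds the middle 50% of all genes tested and the line marks their median of -0.01. Glycolytic genes extend down to -4.71, and the genes to the right of the line belong mostly to the fermentation, acetate, glycerol and gluconeogenesis groups.

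Fermentation genes went both ways, with 4 of 8 genes lower, 3 higher and PDC6 not past the threshold. Over all genes tested 44.8% were lower and 44.2% were higher, so these counts are no result about fermentation genes. PDC1 (YLR044C, chromosome XII from 232390 to 234081), the main pyruvate decarboxylase, had 835 and 688 CPM in the eluates and 1844 and 1614 CPM in the lysates (log2 fold change -1.18, standard error 0.13, edgeR adjusted p = 5.03e-07). PDC5 (YLR134W, chromosome XII from 410723 to 412414), which is known to be induced when PDC1 is missing, had 57.0 and 57.7 CPM in the eluates and 24.4 and 22.5 CPM in the lysates (1.29, standard error 0.10, adjusted p = 1.20e-08). These isoenzymes thus changed in opposite directions. Their coding lengths are the same, but their mean lysate levels differed, at 1022 CPM per kilobase for PDC1 and 13.9 for PDC5. Less the trend with lysate level, described below, both values were positive, 2.15 for PDC1 and 0.25 for PDC5. The part of lysate level in the contrast was not tested. PDC6 (YGR087C) was counted rarely, with 22 and 28 counts in the eluates and 21 and 13 counts in the lysates, and its log2 fold change of -0.25 (standard error 0.33) did not pass (adjusted p = 0.467).

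Alcohol dehydrogenases covered nearly the whole range of changes. ADH1 (YOL086C, chromosome XV from 159548 to 160594), which reduces acetaldehyde to ethanol, had 434 and 494 CPM in the eluates and 7941 and 7159 CPM in the lysates, 16.3-fold lower in the eluates (log2 fold change -4.02, standard error 0.17, edgeR adjusted p = 4.01e-12). ADH2 (YMR303C, chromosome XIII from 873291 to 874337), the glucose-repressed enzyme that oxidises ethanol, had 39.7 and 37.8 CPM in the eluates and 12.2 and 11.4 CPM in the lysates, 3.28-fold higher in the eluates (1.71, standard error 0.12, adjusted p = 2.10e-09). ADH1 was the most abundant member of the family in every library in spite of these opposite changes. ADH3 (YMR083W), the mitochondrial isoenzyme, had 69.4 and 78.9 CPM in the eluates and 747 and 642 CPM in the lysates (-3.23, standard error 0.12). ADH4 (YGL256W), an isoenzyme known from zinc-limited cells, had 95.9 and 99.7 CPM in the eluates and 42.7 and 41.2 CPM in the lysates (1.22, standard error 0.09, adjusted p = 5.41e-09). ADH5 (YBR145W), a minor isoenzyme, had 8.82 and 10.7 CPM in the eluates and 16.7 and 17.6 CPM in the lysates (-0.80, standard error 0.14, adjusted p = 8.92e-05). ADH2 and ADH4 were therefore higher and ADH1, ADH3 and ADH5 lower.

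Gluconeogenesis adds a pair of glucose-repressed enzymes that bypass the irreversible glycolytic steps. FBP1 (YLR377C, chromosome XII from 873746 to 874792), fructose 1,6-bisphosphatase, had 27.3 and 27.1 CPM in the eluates and 7.89 and 9.11 CPM in the lysates, 3.21-fold higher in the eluates (log2 fold change 1.68, standard error 0.13, edgeR adjusted p = 1.06e-08). PCK1 (YKR097W), phosphoenolpyruvate carboxykinase, had 2.17 and 1.57 CPM in the eluates and 2.31 and 2.11 CPM in the lysates, and did not pass (-0.27, standard error 0.27, adjusted p = 0.361). PCK1 rested on 26 to 47 counts per library.

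The acetate branch, which turns acetaldehyde into acetate and acetyl-CoA in the cytosol or the mitochondria, contained an abundant transcript that was higher in the eluate. ALD6 (YPL061W, chromosome XVI from 432588 to 434090), the cytosolic acetaldehyde dehydrogenase, had 763 and 791 CPM in the eluates and 378 and 524 CPM in the lysates (log2 fold change 0.79, standard error 0.14, edgeR adjusted p = 5.98e-05). Counted per kilobase it ranked 82 in the eluates and 508 in the lysates. ALD6 was thus nearly as abundant as ENO2 in the eluates, at 517 CPM per kilobase for ALD6 and 546 for ENO2, while the lysates held 300.0 CPM per kilobase of ALD6 and 7203 of ENO2. Mitochondrial ALD5 (YER073W) had 476 and 536 CPM in the eluates and 375 and 388 CPM in the lysates (0.41, standard error 0.10, adjusted p = 0.00181). Mitochondrial ALD4 (YOR374W) had 190 and 189 CPM in the eluates and 208 and 251 CPM in the lysates (-0.28, standard error 0.10, adjusted p = 0.0224), a call that was lost without eluate 1 (adjusted p = 0.159), without eluate 2 (adjusted p = 0.105) and without lysate 2 (adjusted p = 0.198). ALD4 did not pass with DESeq2 either (adjusted p = 0.0638) or with a filter of 10 CPM (adjusted p = 0.0623). Of the acetyl-CoA synthetases, ACS2 (YLR153C), the one used on glucose, had 402 and 473 CPM in the eluates and 678 and 659 CPM in the lysates (-0.61, standard error 0.11, adjusted p = 9.23e-05). ACS1 (YAL054C), repressed by glucose, had 12.3 and 12.3 CPM in the eluates and 12.0 and 12.3 CPM in the lysates, and did not pass (0.02, standard error 0.14, adjusted p = 0.894).

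In the glycerol branch, which draws on dihydroxyacetone phosphate and reoxidises NADH, 2 of 4 genes were lower, 1 was higher and GPD1 did not pass. With 44.8% lower and 44.2% higher over all genes tested, these counts are no result about the branch. GPD1 (YDL022W), the glycerol 3-phosphate dehydrogenase induced by osmotic stress, had 99.5 and 104 CPM in the eluates and 73.2 and 109 CPM in the lysates (log2 fold change 0.16, standard error 0.14, edgeR adjusted p = 0.276). GPD1 overlaps an open reading frame on the opposite strand over 257 bases. The lysates differed more in GPD1 than in any other of the 39 genes, and its value was -0.11 without lysate 1 (adjusted p = 0.313) and 0.47 without lysate 2 (adjusted p = 7.51e-06). GPD2 (YOL059W), the isoenzyme of anaerobic growth, had 112 and 105 CPM in the eluates and 57.9 and 51.1 CPM in the lysates (0.99, standard error 0.10, adjusted p = 1.05e-07). Glycerol phosphatase GPP1 (YIL053W) had 60.8 and 51.7 CPM in the eluates and 86.3 and 113 CPM in the lysates (-0.82, standard error 0.12, adjusted p = 1.38e-05). Its osmotically induced partner GPP2 (YER062C) had 25.4 and 26.5 CPM in the eluates and 111 and 107 CPM in the lysates (-2.07, standard error 0.09, adjusted p = 1.32e-11). Both genes of the second glycerol step were thus lower, and of the first step 1 gene was higher and the other did not pass.

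As a share of all counts, the 39 genes made up 0.938% and 0.960% of the eluates and 6.98% and 7.59% of the lysates. Exact binomial 95% intervals, which cover counting error only, reached from 0.934% to 0.942% for eluate 1 and from 7.57% to 7.60% for lysate 2. The mean share was 7.67-fold lower in the eluates, with an exact permutation p of 0.333 (two-sided), the smallest that 2 against 2 libraries can give, which holds for every permutation p below. TDH3, ENO2, FBA1, ADH1 and PGK1 alone made up 0.285% ± 0.012 of counts in the eluates and 4.84% ± 0.399 in the lysates (SD, n = 2 each; exact permutation p = 0.333), 17.0-fold lower. The lower glycolytic genes together were 14.5-fold lower in their share, the upper glycolytic genes 7.41-fold, fermentation 7.57-fold and hexose phosphorylation 4.32-fold. The acetate genes had nearly the same share in both fractions, 0.181% ± 0.00397 in the eluates and 0.185% ± 0.0162 in the lysates (SD, n = 2 each; exact permutation p = 1). Within the eluates the order of the pathway therefore differed from that of the lysates, with the acetate branch holding a larger share of counts than fermentation at 0.142% ± 0.010 (SD, n = 2), while in the lysates fermentation held 1.07% ± 0.0703 (SD, n = 2).

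Major isoenzymes were compared with minor ones in 20 pairs from 11 families. Of the 11 major genes, 9 were lower and 1 (ALD6) was higher, with a median log2 fold change of -1.89. Of the 20 minor genes, 12 were lower and 5 (PDC5, ADH2, ADH4, ALD5 and GPD2) were higher, with a median of -1.10. The shares over all genes tested were 44.8% lower and 44.2% higher. The summed shares of major and minor genes fell by different amounts, but such sums rest mostly on the most abundant genes. The major genes with the highest mean lysate levels were TDH3 (14265 CPM), ENO2 (9465 CPM) and ADH1 (7550 CPM), followed by GPM1 (2278 CPM). The major genes made up 0.485% ± 0.00414 of counts in the eluates and 4.22% ± 0.448 in the lysates, an 8.69-fold difference, and the minor genes 0.170% ± 0.00353 in the eluates and 0.474% ± 0.0256 in the lysates, a 2.79-fold difference (SD, n = 2 each). In each library the count of the minor gene per base was then taken as a percentage of the major gene, a ratio that needs no normalization between libraries. This percentage was higher in both eluates than in both lysates in 15 of 20 pairs (75%), lower in 4 (20%) and overlapping in 1. Any gene tested set over the same major genes gave 76.0% higher and 18.7% lower. The counts of pairs were close to that background and are therefore no result about the minor genes as a class. Pairs that share a major gene are not independent. No pair could go below an exact permutation p of 0.333, or 0.351 after adjustment over the 20 pairs.

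The sizes of the shifts nevertheless differed between families. ADH2 was 9.14% and 7.66% of ADH1 in the eluates, while the lysates had 0.153% and 0.159%, a 53.4-fold higher ratio. ADH4 was 20.1% and 18.4% of ADH1 in the eluates, while the lysates had 0.490% and 0.525% (37.9-fold). The ratio of ADH5 to ADH1 was 9.24-fold higher and that of ADH3 only 1.74-fold higher, with 14.8% in both eluates, while the lysates had 8.73% and 8.32%. The alcohol dehydrogenase transcripts were thus far more even in the eluates. Of all genes tested, 95.8% were higher in the eluate relative to ADH1. Counted per kilobase, ADH1 ranked 7 in the lysates and ADH2 ranked 5088. Less the trend with lysate level, described below, the values were 1.43 for ADH1, 0.59 for ADH2, -0.47 for ADH3, 0.96 for ADH4 and -1.74 for ADH5. The part of lysate level in these shifts was not tested. Against GPM1, GPM3 was 14.3% and 13.3% in the eluates, while the lysates had 1.42% and 1.34% (9.997-fold), and GPM2 was 4.92% and 3.43% in the eluates, while the lysates had 0.523% and 0.353% (9.58-fold). Relative to GPM1, 97.7% of genes were higher.

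The remaining glycolytic families had shifts of less than 5-fold. TDH2 was 11.3% and 11.1% of TDH3 in the eluates, while the lysates had 2.40% and 2.56% (4.52-fold), and TDH1 was 1.67% and 1.97% in the eluates, while the lysates had 1.42% and 0.979% (1.54-fold). PYK2 was 20.8% and 21.5% of CDC19 in the eluates, while the lysates had 5.28% and 5.45% (3.95-fold). ENO1 shifted little relative to ENO2, with 13.5% and 12.7% in the eluates, while the lysates had 9.51% and 9.36% (1.39-fold). Of the hexose kinases, HXK1 was 43.7% and 46.6% of HXK2 in the eluates, while the lysates had 27.7% and 33.6% (1.48-fold). GLK1 ran the other way, with 26.8% and 29.4% in the eluates, while the lysates had 32.8% and 34.6% (1.20-fold lower). EMI2 overlapped, with 9.59% and 9.93% in the eluates, while the lysates had 10.7% and 9.92%. Of all genes tested, 95.01% were higher relative to TDH3, 94.5% relative to ENO2, 80.7% relative to CDC19 and 81.8% relative to HXK2.

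**Figure D3:**
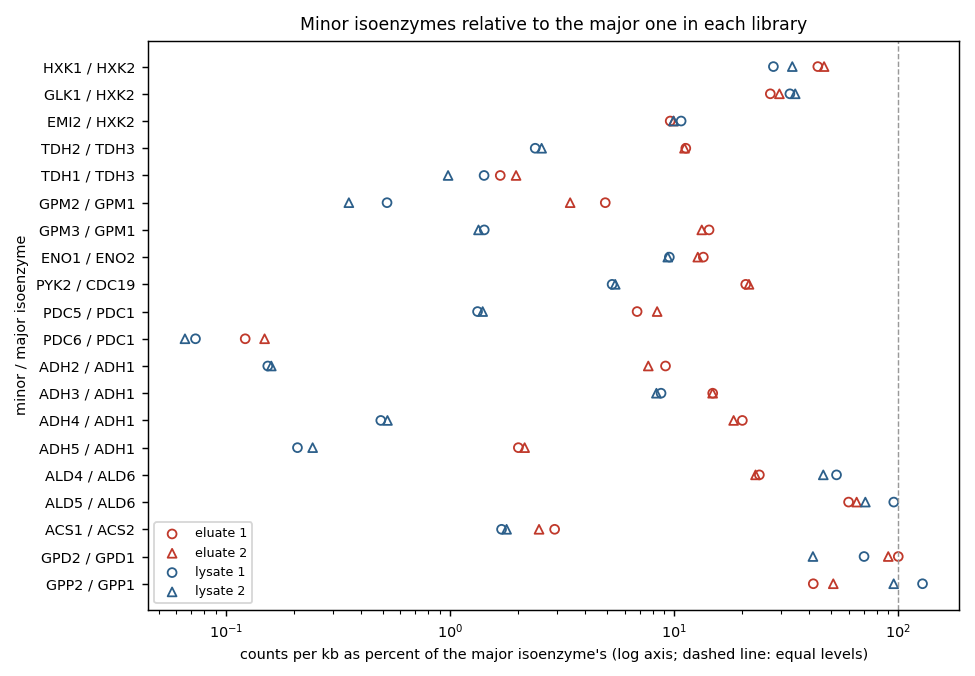
Counts per base of each minor isoenzyme as a percentage of the major isoenzyme of its family in each library (log axis), with eluates in red and lysates in blue and the dashed line at equal levels. Red symbols lie to the right of blue ones in 15 of 20 pairs (75%), with the widest gap for ADH2 over ADH1 (53.4-fold), and to the left for GLK1, ALD4, ALD5 and GPP2. Any gene tested set over the same major genes gave 76.0% higher, so the count is no result about minor genes.

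PDC5 was 6.83% and 8.39% of PDC1 in the eluates, while the lysates had 1.32% and 1.40% (5.56-fold), and PDC6 stayed under 0.2% of PDC1 in every library. In the acetate branch, where the major gene ALD6 itself was higher in the eluate, both minor genes were lower relative to it, as were most genes tested, of which 34.9% were higher relative to ALD6. ALD4 was 23.97% and 23.0% of ALD6 in the eluates, while the lysates had 53.0% and 46.2% (2.11-fold lower), and ALD5 was 59.95% and 65.1% in the eluates, while the lysates had 95.4% and 71.2% (1.32-fold lower). ALD6 and ALD5 were nearly level in lysate 1 and further apart in the eluates, but lysate 2 at 71.2% was close to eluate 2 at 65.1%. Without lysate 1 the log2 change of this ratio was -0.19, against -0.40 with all libraries. ACS1 was 2.92% and 2.49% of ACS2 in the eluates, while the lysates had 1.70% and 1.78% (1.55-fold). GPD2 was 99.9% and 90.1% of GPD1 in the eluates, while the lysates had 70.3% and 41.6% (1.76-fold). GPP2 was 41.7% and 51.2% of GPP1 in the eluates, while the lysates had 128% and 95.3%, 2.39-fold lower. Relative to PDC1, 70.9% of genes tested were higher, and the shares were 60.9% for ACS2, 46.7% for GPD1 and 64.8% for GPP1. By the mean lysate level per kilobase GPP2 rather than GPP1 led this family, the only 1 of the 11 where the gene taken as major did not lead, and with GPP2 as major the count of pairs that were higher was 16 of 20.

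Near-identical isoenzymes, such as TDH2 and TDH3, ENO1 and ENO2, ADH1 and ADH2, PDC1 and PDC5, and HXK1 and HXK2, can share reads. The sources used here do not state how multi-mapping reads were counted, so the split within these families is uncertain and its part in the ratios was not tested. How reads over overlapping frames were counted is not stated either. This bears on the ratios with CDC19 (963 bases shared), GPM1 (468 bases), HXK1, GLK1 and GPD1, and its part was not tested. With the counts of each family or single gene summed before the fit, 14 of 19 such units were lower and 3 were higher. The summed units that were higher were the ALD family (log2 fold change 0.47, standard error 0.13, edgeR adjusted p = 0.00272), FBP1 (1.68) and the GPD family (0.53, standard error 0.11, adjusted p = 0.000273). The summed ADH family had -3.60, close to ADH1 alone, and the summed PDC family had -1.10, close to PDC1 alone.

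Coding length and transcript abundance both go with enrichment in these libraries. Across nuclear genes tested, Spearman's rho of the log2 fold change with coding length was 0.47 (n = 6166), and across the 39 genes it was 0.37. With the mean lysate CPM per kilobase it was -0.58 across nuclear genes and -0.78 across the 39 genes. These are descriptions across genes, and the lysate counts also form the denominator of the fold change. Among genes of a like length the carbon metabolism genes were mostly on the low side. Between 936 and 1389 bases, 11 of 16 of them lay below the median of all genes there, and their median was -2.45 against -0.41. From 1392 to 2064 bases 13 of 15 lay below, with a median of -0.61 against 0.43. All 3 above 2067 bases, PFK1, PFK2 and ACS1, lay below the median of 1.51 for their length.

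Set beside genes of the same class of lysate level, the 39 genes were not on 1 side throughout. The highest 1 of 5 equal classes of lysate level held 26 of the 39 genes. It is a wide class, from 116 to 26800 CPM per kilobase, so levels within it are not alike. The median of the 26 genes was -2.07 and that of all 1233 genes there was -2.12, with 12 of 26 below. In the lowest class the 5 genes had a median of 0.02 against 1.379, and in the next class the 3 genes had -0.80 against 0.81. In the middle class the 4 genes had 0.54 against 0.21, and in the class above it GPD1 had 0.16 against -0.58. Of the 100 nuclear genes highest in the lysates, all were lower in the eluate, with a median of -4.75, and the 7 carbon metabolism genes among them had a median of -4.02. After subtraction of the trend with lysate level, the median of the 39 genes changed sign, from -1.43 to 0.53. After subtraction of the trend with coding length it was -1.50.

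**Figure D4:**
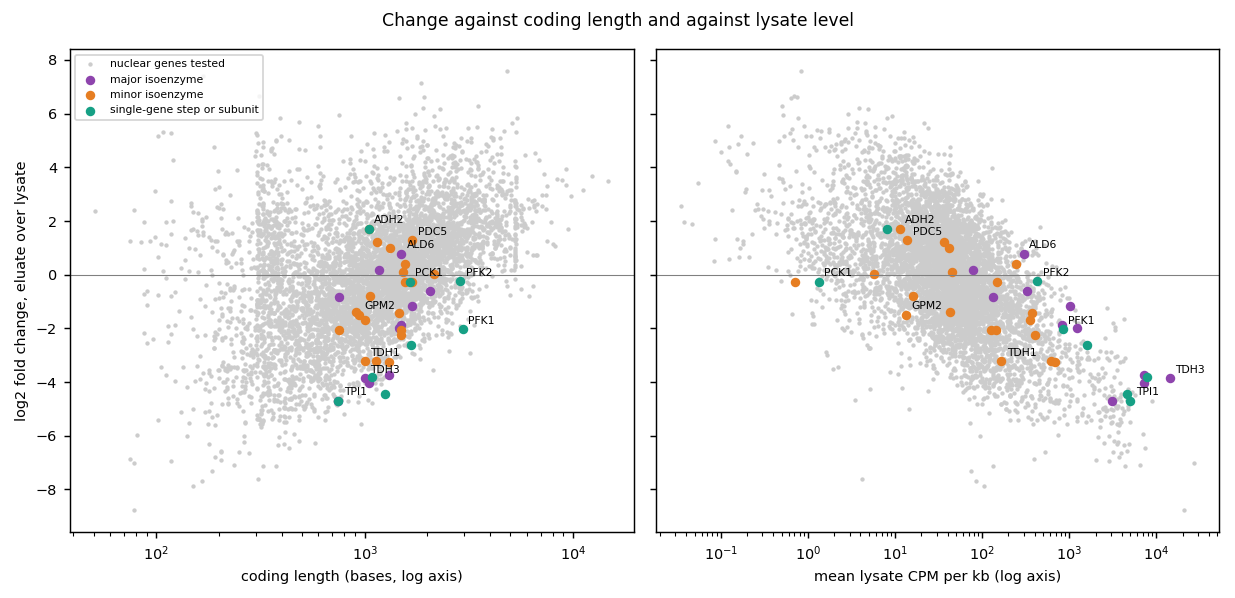
Log2 fold change, eluate over lysate, against coding length (left) and against the mean lysate CPM per kilobase (right), both on log axes, for nuclear genes tested (grey) and the 39 carbon metabolism genes (coloured by isoenzyme class, some named). Most coloured points lie in the lower part of the cloud at their length, while on the right they follow the fall of the cloud with lysate level, with Spearman's rho of -0.78 for the coloured points and -0.58 for all.

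Other genes of sugar metabolism were counted in 4 further lists. Of 14 regulators of glycolytic and glucose-repressed genes, 11 were higher in the eluate and the other 3 did not pass, with a median log2 fold change of 1.86. The highest were RGT1, a repressor of glucose transporter genes, at 3.98 and CAT8, an activator of gluconeogenic genes, at 2.25. The lowest were FBP26 at -0.05 and PFK26 at 0.18, which encode enzymes that set fructose 2,6-bisphosphate and were among those not past the threshold. The regulators of the pathway and its enzymes thus had medians on opposite sides of that of all genes. The sets were not matched for coding length or lysate level, and the part of these in the contrast was not tested. RGT1 has 3513 bases and CAT8 4302, and nuclear genes from 2067 bases upward had a median of 1.51. TYE7, with 876 bases and 11.8 and 16.9 CPM in the lysates, was also higher, at 1.54. It is 1 gene picked from the list, and the part of coding length was not tested. Of the enzyme genes, 26 lay in the highest class of lysate level, where the median of all genes was -2.12. Of 11 genes of the pentose phosphate pathway, 8 were lower and 3 were higher, with a median of -2.12. TAL1, transaldolase, at -3.24 and SOL3, a lactonase, at -3.07 were the lowest. The highest were GND2, a phosphogluconate dehydrogenase, at 2.56 and TKL2, a transketolase, at 2.16.

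Reserve carbohydrate genes went both ways, with 8 of 17 genes of glycogen and trehalose metabolism lower and 8 higher, and a median log2 fold change of 0.18. GDB1, the glycogen debranching enzyme, at 3.78 and GLG1, a glycogenin, at 3.39 were the highest, and UGP1 at -1.44 and PGM1 at -1.25, which act on the way to UDP-glucose, were the lowest. Of 7 genes of pyruvate carboxylation and the glyoxylate cycle, 5 were higher and 1 was lower, with a median of 1.10. The pyruvate carboxylases PYC1 at 2.82 and PYC2 at 1.55 led this list. CIT2, the peroxisomal citrate synthase, at -0.27 was lower, and MLS1, malate synthase, at 0.25 did not pass. Across these 4 lists the shares can be read against the 44.8% lower and 44.2% higher of all genes tested.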

How the data were processed

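RNA of 2 biotin eluates and 2 total lysates was compared, grouped by their labels. The paper describes the replicates as biological. Raw counts for each open reading frame were deposited by the authors. The submitters' processing notes name STAR 2.7.9a, featureCounts, Subread 2.0.3 and the build sacCer3. The treatment of strand and of multi-mapping reads was not given in the sources used here. In addition, the authors deposited their own DESeq2 1.38.3 comparison (means, log2 fold changes, standard errors, Wald statistics and p-values), which was not used. The deposited coding lengths leave out untranslated regions. Depth was 11448755 to 29903666 counts per library.

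All 6692 open reading frames entered edgeR 4.0.16 in R 4.3.3 (filterByExpr, TMM, glmQLFit and glmQLFTest, fraction as the only term). Calls needed a Benjamini-Hochberg adjusted p under 0.05 over the 6191 genes tested. Standard errors were obtained by dividing the absolute log2 fold change by the square root of F. Ratios of isoenzymes had 0.5 added to each count. Exact permutation tests were two-sided over the 4 libraries. Trends were lowess curves with a fraction of 0.3. The procedure was tested on simulated data.

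The genes, lists and major isoenzymes were chosen with earlier results of these data known. All 39 genes were open to naming, with the highest and lowest genes of each other list and the genes of the strain check. Alternatives were other size factors, other filters, DESeq2 1.42.0, limma-voom (limma 3.58.1), a replicate block, leaving out each library, summed families and a pseudocount of 5. Sequence identity between isoenzymes was not analysed here. Symbols came from the RefSeq table of R64, which matched 6008 identifiers. Same-numbered eluates and lysates did not deviate together (correlation of deviations -0.0334 over 6191 genes).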

Additional observations from a re-analysis of the deposited data

How the results depend on the processing

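The 39 genes gave 32 to 34 calls under every change of size factors, filter, tool and library tried, and with the replicate block, which left 33 calls (26 lower and 7 higher), a median log2 fold change of -1.43 and a share ratio of 0.131. The labels give replicate numbers but do not say whether same-numbered eluates and lysates came from 1 culture. The correlation of deviations (-0.0334) cannot decide this with 2 libraries a group, so whether the block is a pairing is unknown. With counts summed by family, 17 of 19 units were called, 14 lower and 3 higher. The median of the 39 genes was -1.61 with library sizes alone, which shifted the median of all genes by -0.18, -1.18 without the 6 genes that overlap another (28 of 33 called), -1.50 less the length trend and 0.53 less the trend with lysate level, whose construction shares the lysate counts with the fold change. Leaving out 1 library gave medians from -1.49 to -1.30 and ratios of the share of counts, eluate over lysate, from 0.125 to 0.136, against 0.130 with all. Genes near 0 changed sign. With library sizes alone PYK2 had -0.083, ACS1 -0.16 and GPD1 -0.021, none past the threshold, and leaving out 1 library gave -0.00056 to 0.21 for PYK2, -0.0015 to 0.055 for ACS1 and -0.11 to 0.47 for GPD1, which was called higher without lysate 2. PFK2 was called lower with library sizes alone (-0.43, adjusted p = 0.00771, against 0.0863 to 0.193 under the other scalings, filters, tools and the block) and without lysate 1. The cause was not tested. Among 39 genes and all settings, 413 values kept their direction and their side of the threshold, 6 changed sign, 5 lost a call and 3 gained 1. The ratio of minor to major isoenzyme kept its direction in all 20 pairs under the pseudocount of 5 and with each library left out, and the block cannot change a difference of means in this balanced design. With 2 libraries a group, permutation tests cannot pass a threshold of 0.05. PDC6 and PCK1, the least counted genes at 13 to 47 counts per library, had the largest standard errors of the 39 genes, 0.33 and 0.27. A test of sequence shared between isoenzymes was not run.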

Other observations

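Several of the 39 genes lie near each other. ADH4 and HXK2 are 7627 bases apart on chromosome VII with log2 fold changes of 1.22 and -1.997, GPM2 and GPD1 are 952 bases apart on chromosome IV with -1.49 and 0.16, and GPM3 and GPD2 are 4819 bases apart on chromosome XV with -1.39 and 0.99. In each of these 3 pairs of neighbours 1 gene was lower in the eluate and the other was not, and GPD1 did not pass the test. Lower calls made up 66.7% of the 39 genes and 44.8% of all genes tested, so the 3 pairs are no result about neighbouring genes. MF(ALPHA)2, a pheromone gene of the opposite mating type, was higher in the eluate at 14.7 and 13.5 CPM, against 1.80 and 2.60 CPM in the lysates.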
